A study of Mus musculus with 12 samples.

Results

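ERK feedback and output genes were followed in S1 tumorspheres that had lost *Rasa1*, *Nf2* or both. The 10 genes were *Dusp4*, *Dusp5*, *Dusp6*, *Spry1*, *Spry2*, *Spry4*, *Etv4*, *Etv5*, *Fosl1* and *Phlda1*, chosen by name as genes that ERK is known to induce. Earlier results of these data were known when they were chosen. All 10 were found among the 18926 genes of the tables, and all 10 were among the 18053 with enough reads to be tested. The S1 line was derived from a gastric cancer of the ChetPS mouse, and its cells grow as tumorspheres, floating clusters, in low-attachment plates. The protocol gives a medium with EGF or a commercial tumorsphere medium, and does not say which was used for these libraries. All groups were cells with Cas9 that received sgRNA lentivirus and were selected with puromycin as pools, with control sgRNA, sgRNA against *Rasa1*, sgRNA against *Nf2*, or both. There were 3 libraries in each of the 4 groups, and p-values measure the spread between these libraries, which the study calls technical replications. The labels call the cells a monolayer, whereas the treatment protocol describes tumorspheres. The labels name no alleles beyond these knockouts.

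Growth factor receptors load RAS with GTP, RAS-GTP recruits RAF, and RAF and MEK phosphorylate ERK. RASA1 is a GTPase-activating protein that switches RAS off, and NF2 (merlin) is a membrane-linked tumour suppressor that activates the Hippo kinases, which restrain YAP and TAZ. Active ERK induces genes that turn the cascade down again, so the mRNA of these genes is widely used as a readout of ERK output. DUSP4 and DUSP5 are nuclear phosphatases of MAP kinases, DUSP6 is their cytoplasmic relative and is selective for ERK, and Sprouty proteins act between receptor and RAF. ETV4, ETV5 and FOSL1 carry the output onward as transcription factors, of the ETS family and of the AP-1 complex, respectively. PHLDA1 is a small protein with a pleckstrin homology-like domain whose gene is induced by growth factors.

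The *Nf2* mRNA went against the labels of 2 groups. Its CPM, the read counts scaled to library size with TMM factors, averaged 58.2 ± 2.82 in control (SD, n = 3), 13.6 ± 0.631 in *Nf2*-KO, 58.9 ± 3.30 in the group labelled double-KO and 11.9 ± 0.253 in that labelled *Rasa1*-KO. *Rasa1* had 71.3 ± 9.54, 98.5 ± 2.21, 20.5 ± 2.80 and 31.9 ± 2.27 CPM in the same order. The names of the deposited tables also give these 2 groups the other way round. Each is therefore named by its label, which may be that of the other group. The libraries held 43818139 to 96674463 counts in total, and the lowest count of any of the 10 genes was 67, for *Fosl1* in the unnumbered control library. That library and library 1 of the group labelled double-KO stood apart from the others of their groups. Some results are therefore also given without both, and changed counts of genes called follow in the closing section on processing. The *Nf2*-low groups, *Nf2*-KO and labelled *Rasa1*-KO, also had more mRNA of fibroblast markers. Of these markers, *Col1a1*, *Col3a1*, *Pdgfra* and *Pdgfrb* rose in both groups, *Dcn* fell in both, and *Lum* was not in the tables. The summed level of the 5 was between 28.9 and 299 TPM (a level per transcript length) in control, 479 and 538 TPM in labelled *Rasa1*-KO, 1624 and 1800.2 TPM in *Nf2*-KO, and 27.7 and 75.1 TPM in labelled double-KO. The epithelial markers *Krt8*, *Krt18*, *Krt19*, *Cldn4* and *Epcam* summed to between 3752 and 4526 TPM in control, 4955 and 5128 TPM in labelled *Rasa1*-KO, 4084 and 4259.9 TPM in *Nf2*-KO, and 4619 and 5404 TPM in labelled double-KO. *Epcam* fell by 1.55, 2.63 and 0.84 on the log2 scale in labelled *Rasa1*-KO, *Nf2*-KO and labelled double-KO, *Krt8*, *Krt18* and *Krt19* rose in labelled *Rasa1*-KO, *Krt19* rose in labelled double-KO, and *Cldn4* was under 1 TPM in every library. The leukocyte marker *Ptprc* and the endothelial markers *Pecam1* and *Kdr* were each under 1 TPM in every library. *Cd68*, the other leukocyte marker in the tables, had between 5.29 and 11.6 TPM in control, 17.0 and 20.2 TPM in labelled *Rasa1*-KO, 14.2 and 16.4 TPM in *Nf2*-KO, and from 5.998 to 18.4 TPM in labelled double-KO. The part of these markers in the results below was not tested. In bulk RNA, fewer cells that express a gene and less of its RNA per cell cannot be told apart.

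Promoter sequence is shown for the phosphatase genes *Dusp5* and *Dusp6*, which rose in all 3 comparisons with control. *Dusp4* rose in all 3 as well, but was not among the genes with a promoter window. The stretches are the 250 bases before the start in RefSeq (GRCm38.p6, + strand, 5′ to 3′), *Dusp5* at chr19:53528895-53529144 and *Dusp6* at chr10:99262981-99263230. Capitals mark matches on either strand to the ETS core AGGAAG, which reads CTTCCT on the strand shown, and to the CArG box that serum response factor binds.
Dusp5: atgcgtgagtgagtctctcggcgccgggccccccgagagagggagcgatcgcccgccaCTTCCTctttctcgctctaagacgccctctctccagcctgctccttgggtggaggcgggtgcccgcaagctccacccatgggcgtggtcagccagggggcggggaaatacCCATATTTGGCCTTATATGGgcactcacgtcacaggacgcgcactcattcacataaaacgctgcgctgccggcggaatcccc
Dusp6: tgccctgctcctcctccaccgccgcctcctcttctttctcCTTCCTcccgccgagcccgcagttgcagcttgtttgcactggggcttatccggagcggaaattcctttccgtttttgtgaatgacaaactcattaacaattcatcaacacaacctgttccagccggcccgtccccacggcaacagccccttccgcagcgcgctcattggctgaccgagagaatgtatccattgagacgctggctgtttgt
The *Dusp5* stretch held 2 CArG boxes that touch, CCATATTTGG and CCTTATATGG, and 1 ETS core. The *Dusp6* stretch held 1 ETS core and no CArG box. Of 32851 RefSeq promoter windows of 300 bases (250 before and 50 after the start), 1.63% held a CArG box, 0.0183% held 2 or more, and 35.4% held the ETS core, so the core match is common. Of the other members in that table, a *Spry1* window held the TEAD motif GGAATG once (14.7% of all windows) and 1 of 2 *Etv5* windows held the ETS core just after its start. No window of a member held the longer ETS motif CCGGAAG (8.86% of all windows), the AP-1 motif TGANTCA (7.81%) or the CRE motif TGACGTCA (1.79%), and *Spry2* held none of the 6 motifs. A match is a run of letters in this window and no measurement of binding.

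The 3 phosphatase genes were higher than control in all knockout groups. *Dusp6* (chromosome 10, 99263231 to 99267489 of GRCm38.p6) had 110.0, 124 and 110.5 CPM in the control libraries without a number, 1 and 2. It had 207, 188 and 193 CPM in the libraries labelled *Rasa1*-KO (without a number, 1 and 2), 186, 196 and 198 CPM in *Nf2*-KO libraries 1 to 3, and 166, 164 and 171 CPM in libraries 1 to 3 labelled double-KO. The groups labelled *Rasa1*-KO and *Nf2*-KO overlapped, labelled double-KO lay below both and above control, and no library of a knockout group reached down to control. The log2 fold changes against control were 0.77 (standard error 0.09, edgeR quasi-likelihood test with Benjamini-Hochberg adjustment over all genes tested, adjusted p = 3.9e-05) for labelled *Rasa1*-KO, 0.75 (0.09, adjusted p = 3.4e-05) for *Nf2*-KO and 0.54 (0.09, adjusted p = 0.0037) for labelled double-KO. This test gives all adjusted p-values below.

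*Dusp5* (chromosome 19, 53529145 to 53541809) had the largest fold changes of these phosphatases. It had 14.3, 17.5 and 15.5 CPM in control, 41.4, 41.2 and 45.2 CPM in labelled *Rasa1*-KO, 32.8, 33.2 and 36.2 CPM in *Nf2*-KO, and 19.1, 27.3 and 29.5 CPM in labelled double-KO, in the library order given for *Dusp6*. No groups overlapped, and library 1 labelled double-KO, which stood apart, was the lowest of its group. The log2 fold changes against control were 1.44 (standard error 0.15, adjusted p = 2.5e-05), 1.11 (0.15, adjusted p = 0.00011) and 0.68 (0.15, adjusted p = 0.019) in labelled *Rasa1*-KO, *Nf2*-KO and labelled double-KO. The last was 0.63 (adjusted p = 0.089) without library 2 labelled double-KO and 0.57 (adjusted p = 0.081) without library 3.

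*Dusp4* (chromosome 8, 34807610 to 34819894) had 42.1, 54.0 and 40.8 CPM in control, 81.7, 83.4 and 87.1 CPM in labelled *Rasa1*-KO, 59.3, 64.0 and 63.8 CPM in *Nf2*-KO, and 57.4, 71.4 and 66.7 CPM in labelled double-KO. The libraries labelled *Rasa1*-KO lay above all others, *Nf2*-KO and labelled double-KO overlapped, and control lay below them. The log2 fold changes against control were 0.88 (standard error 0.12, adjusted p = 0.00018), 0.45 (0.12, adjusted p = 0.011) and 0.51 (0.12, adjusted p = 0.028), in the same order of groups. The last lost its call without control library 2 (0.45, adjusted p = 0.067) and without library 2 (0.45, adjusted p = 0.13) or 3 (0.51, adjusted p = 0.10) labelled double-KO.

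Sprouty genes did not move together. *Spry1* (chromosome 3, 37639947 to 37644599) had 31.7, 27.2 and 33.0 CPM in control, 42.1, 40.5 and 43.4 CPM in labelled *Rasa1*-KO, 37.6, 40.0 and 37.9 CPM in *Nf2*-KO, and 29.7, 29.7 and 29.4 CPM in labelled double-KO. The *Nf2*-low groups lay above control without overlap, and the libraries labelled double-KO lay inside the range of control. Against control, *Spry1* rose by 0.45 (standard error 0.09, adjusted p = 0.0024) on the log2 scale in labelled *Rasa1*-KO and by 0.33 (0.09, adjusted p = 0.014) in *Nf2*-KO, and its value was -0.05 (0.09, adjusted p = 0.81) in labelled double-KO. The rise in *Nf2*-KO lost its call without control library 1 (0.25, adjusted p = 0.056) or *Nf2*-KO library 2 (0.30, adjusted p = 0.055). *Spry2* (chromosome 14, 105891947 to 105896819) had 14.2, 14.4 and 16.3 CPM in control, 21.2, 23.6 and 22.7 CPM in labelled *Rasa1*-KO, 21.8, 20.6 and 19.7 CPM in *Nf2*-KO, and 18.2, 19.4 and 17.7 CPM in labelled double-KO. All knockout libraries lay above control. *Spry2* rose by 0.59 (standard error 0.10, adjusted p = 0.00066) and 0.47 (0.10, adjusted p = 0.0026) in the *Nf2*-low groups, in that order, and its log2 fold change of 0.30 (0.10, adjusted p = 0.097) in labelled double-KO missed the threshold, which it passed without control library 2 (0.38, adjusted p = 0.043).

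*Spry4* spread widely in control and did not pass the test against it. It had 3.26, 7.69 and 9.41 CPM in control, 4.23, 5.78 and 4.15 CPM in labelled *Rasa1*-KO, 5.03, 3.72 and 3.08 CPM in *Nf2*-KO, and 6.91, 8.31 and 8.04 CPM in labelled double-KO. Control libraries 1 and 2 lay above both *Nf2*-low groups, and the unnumbered control library lay within the range of *Nf2*-KO. The log2 fold changes against control were -0.52 (standard error 0.33, adjusted p = 0.22) in labelled *Rasa1*-KO, -0.78 (0.33, adjusted p = 0.075) in *Nf2*-KO and 0.20 (0.32, adjusted p = 0.78) in labelled double-KO. Without the unnumbered control library, *Spry4* fell in both *Nf2*-low groups, with values of -0.85 (adjusted p = 0.0039) and -1.11 (adjusted p = 0.00063). In that fit 60.5% and 61.6% of all genes passed, against 41.9% and 42.8% with all libraries.

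Of the ETS factors, *Etv4* passed against control in the same groups as *Spry1*, and *Etv5* did not pass the test in any comparison. *Etv4* (chromosome 11, 101769747 to 101785310) had 14.6, 14.4 and 11.5 CPM in control, 24.0, 23.2 and 25.1 CPM in labelled *Rasa1*-KO, 22.1, 22.4 and 24.9 CPM in *Nf2*-KO, and 16.6, 14.4 and 14.9 CPM in labelled double-KO. The *Nf2*-low groups lay above all other libraries, and labelled double-KO overlapped with control. The log2 fold changes against control were 0.84 (standard error 0.12, adjusted p = 0.00018), 0.78 (0.12, adjusted p = 0.00024) and 0.18 (0.12, adjusted p = 0.40). *Etv5* (chromosome 16, 22381313 to 22439570) had 7.66, 9.38 and 10.9 CPM in control, 10.1, 11.0 and 10.7 CPM in labelled *Rasa1*-KO, 12.1, 10.4 and 10.4 CPM in *Nf2*-KO, and 9.61, 7.89 and 9.06 CPM in labelled double-KO. Every group overlapped with control, and the values against control were 0.19 (standard error 0.14, adjusted p = 0.31), 0.24 (0.14, adjusted p = 0.20) and -0.07 (0.14, adjusted p = 0.83).

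*Fosl1*, the gene of the AP-1 subunit FRA-1, had the largest fold changes of the 10 genes in all 3 comparisons with control. *Fosl1* (chromosome 19, 5447698 to 5455938) had 0.712, 3.34 and 3.02 CPM in control, 9.64, 11.9 and 9.69 CPM in labelled *Rasa1*-KO, 14.7, 9.20 and 9.81 CPM in *Nf2*-KO, and 3.43, 6.28 and 7.05 CPM in labelled double-KO. All knockout libraries lay above all control libraries, although library 1 labelled double-KO was only just above control library 1. *Fosl1* rose by 2.16 (standard error 0.47, adjusted p = 0.0034) on the log2 scale in labelled *Rasa1*-KO and by 2.27 (0.47, adjusted p = 0.0023) in *Nf2*-KO. Its value of 1.26 (0.46, adjusted p = 0.14) in labelled double-KO missed the threshold, and was 1.07 (adjusted p = 0.0039) without both libraries that stood apart, where 29.9% of all genes passed. Library 1 labelled double-KO, which has no number in the names of the tables, deviated together with the unnumbered control library. Numbers 1 and 2 in these names did not set pairs apart. With these names as a block in the fit over all 4 groups, *Fosl1* passed in labelled double-KO with 1.43 (adjusted p = 0.0076). So did 13.9% of all genes, against 6.46% without the block. No other of the 10 genes changed its call against control in labelled double-KO under this block.

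*Phlda1* was the gene that fell against control. *Phlda1* (chromosome 10, 111506286 to 111508649) had 14.1, 26.8 and 53.1 CPM in control, 11.0, 13.3 and 8.33 CPM in labelled *Rasa1*-KO, 12.5, 8.01 and 7.89 CPM in *Nf2*-KO, and 29.5, 32.7 and 26.3 CPM in labelled double-KO. Both *Nf2*-low groups lay below the lowest control library, and labelled double-KO lay inside the wide range of control. *Phlda1* fell by 1.53 (standard error 0.39, adjusted p = 0.0085) on the log2 scale in labelled *Rasa1*-KO and by 1.72 (0.39, adjusted p = 0.0041) in *Nf2*-KO, and its value was -0.09 (0.38, adjusted p = 0.93) in labelled double-KO. The size of the fall depended on control library 2, without which *Phlda1* fell by 0.93 (adjusted p = 0.029) and 1.13 (adjusted p = 0.011).

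**Figure D1:**
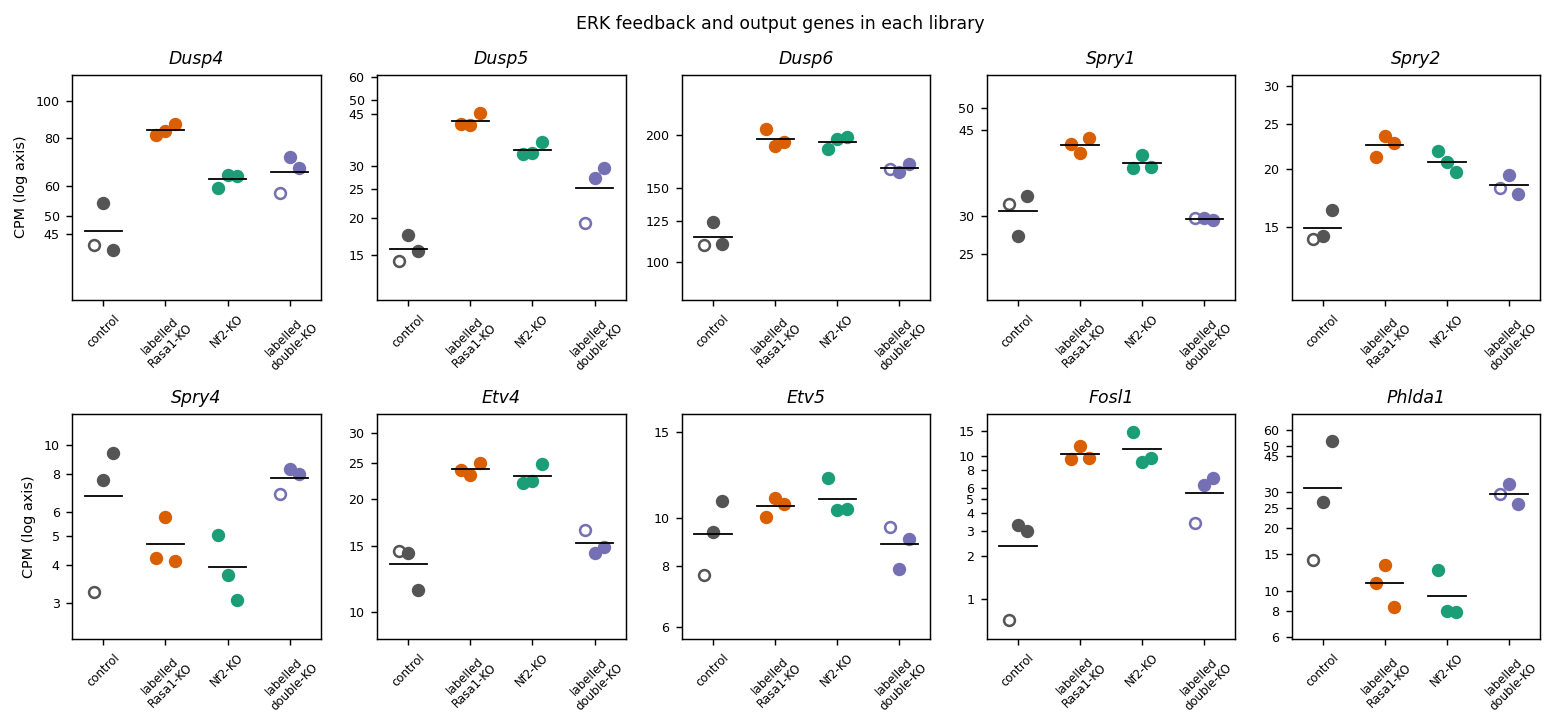
CPM of each gene (log axis) in the 12 libraries by group, with a line at the mean of the 3 libraries and open circles for both libraries that stood apart. *Dusp5* and *Dusp6* lie above control in every knockout library, and *Phlda1* lies between 7.89 and 13.3 CPM in the *Nf2*-low groups and between 14.1 and 53.1 CPM elsewhere.

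Counted over the 10 genes, 7 rose and 1 fell in labelled *Rasa1*-KO against control, where 19.7% of all genes tested rose and 22.2% fell. In *Nf2*-KO the same counts were 7 and 1, against 20.6% and 22.2% of all genes. In labelled double-KO 3 rose and none fell, against 4% and 2.46%. The median log2 fold change of the 10 genes was 0.68, 0.46 and 0.25 in these comparisons, and that of all genes was -0.08, -0.07 and -0.04. The genes that rose or fell in the *Nf2*-low groups were also those whose libraries did not overlap with control, 7 above and 1 below in each, where 24.1% and 22.7% of all genes lay wholly above and below in labelled *Rasa1*-KO and 24.4% and 22.4% in *Nf2*-KO. In labelled double-KO *Spry2* and *Fosl1* joined the 3 phosphatase genes, so that 5 of the 10 genes lay wholly above control and none below, against 10.0% and 8.36% of all genes. The 3 comparisons share the control libraries. By the calling rule of the study, which takes 3-fold changes with an unadjusted p under 0.05, 1 gene (*Fosl1*) was called in labelled *Rasa1*-KO, 2 (*Fosl1* and *Phlda1*) in *Nf2*-KO and 0 in labelled double-KO, against 9.27%, 11.4% and 2.03% of all genes. Between the knockout groups it called 1 gene, *Phlda1* in labelled double-KO against *Nf2*-KO (7.69% of all genes), and none in labelled double-KO against labelled *Rasa1*-KO (5.66%) or in labelled *Rasa1*-KO against *Nf2*-KO (1.29%).

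**Figure D2:**
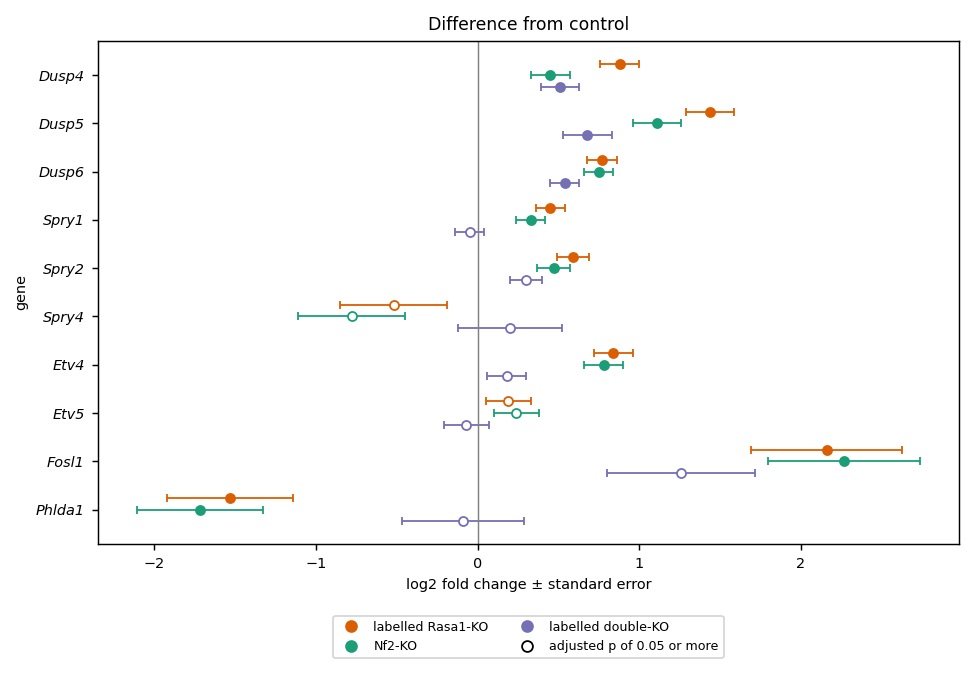
Log2 fold change against control (x axis) of each gene (y axis) with its standard error from the edgeR fit, in labelled *Rasa1*-KO, *Nf2*-KO and labelled double-KO. Filled points passed an adjusted p of 0.05; *Fosl1* and *Phlda1* reach 2.27 and -1.72, and the 3 *Dusp* genes are filled in all 3 comparisons.

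The scale affected the size of these rises. On the TPM of the authors, the median of all genes was lower by 0.25 on the log2 scale in labelled *Rasa1*-KO than in control, by 0.11 in *Nf2*-KO and by 0.18 in labelled double-KO. Tested with limma on log2(TPM + 1), *Dusp5*, *Etv4* and *Fosl1* still rose and *Phlda1* still fell in labelled *Rasa1*-KO, while *Dusp4*, *Dusp6* and *Spry2* had 0.41 (adjusted p = 0.10), 0.29 (adjusted p = 0.16) and 0.31 (adjusted p = 0.12). *Spry1* had -0.00 on this scale, and *Etv5* changed sign to -0.15 (adjusted p = 0.50). In *Nf2*-KO, *Dusp5*, *Dusp6*, *Etv4* and *Fosl1* rose and *Phlda1* fell on TPM, and in labelled double-KO none passed. Thus 4, 5 and 0 of the 10 genes passed on TPM, where 44.8%, 37.0% and 10.2% of all genes did, so that the share in labelled *Rasa1*-KO was near that of all genes. On log2(FPKM + 1), where the median of all genes was -0.05 or nearer to 0 in these comparisons, 8, 8 and 1 of the 10 genes passed, and 42.3%, 42.8% and 7.89% of all genes.

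The libraries labelled *Rasa1*-KO and those of *Nf2*-KO, both low in *Nf2*, were then compared directly. This comparison asks what differs between the groups when *Nf2* mRNA is low in both and *Rasa1* mRNA is low in the former. None of the 10 genes passed the edgeR test, where 1.92% of all genes were higher and 1.74% lower. At an unadjusted p under 0.05 there were 2, *Dusp4* and *Dusp5*, and DESeq2 called 1, *Dusp4*, as it did 8.11% of all genes. *Dusp4* was higher in every labelled *Rasa1*-KO library than in any *Nf2*-KO library, with a log2 difference of 0.43 (standard error 0.12, adjusted p = 0.082). *Dusp5* was likewise higher in every library, by 0.32 (0.15, adjusted p = 0.32), and so was *Spry1* (0.13, standard error 0.09, adjusted p = 0.61), so that 3 genes lay wholly above and none below, where 19.5% and 20.3% of all genes did. Without both libraries that stood apart, which are in neither group but add to the shared estimate of the spread, *Dusp4* (adjusted p = 0.0064) and *Dusp5* (adjusted p = 0.012) passed at differences of 0.43 and 0.32, as did 19.2% of all genes, so that 2 of 10 is near the share of all genes. *Dusp6* differed by 0.02 (0.09, adjusted p = 0.96), *Fosl1* by -0.11 (0.44, adjusted p = 0.96) and *Phlda1* by 0.20 (0.38, adjusted p = 0.89). On log2(TPM + 1), where the median of all genes was -0.17, the difference was 0.15 for *Dusp4*, 0.04 for *Dusp5* and -0.15 for *Spry1*, and none passed.

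The libraries labelled double-KO, low in *Rasa1* but not in *Nf2*, were compared with both *Nf2*-low groups. Against labelled *Rasa1*-KO, 5 of the 10 genes were lower (14% of all genes) and 1 was higher (16.3%). Those lower were *Dusp5* with -0.75 (standard error 0.15, adjusted p = 0.003), *Etv4* with -0.66 (0.12, adjusted p = 0.0015), *Spry1* with -0.50 (0.09, adjusted p = 0.002), *Dusp4* with -0.37 (0.12, adjusted p = 0.04) and *Spry2* with -0.29 (0.10, adjusted p = 0.045). *Phlda1* was higher by 1.44 (0.39, adjusted p = 0.015). The libraries of these groups did not overlap for any of the 10 genes, with 8 lower and 2 higher in labelled double-KO, where 28.6% of all genes lay wholly below and 28.6% wholly above. *Spry2* lost its call when any 1 library of these groups was left out (adjusted p between 0.068 and 0.14), *Dusp4* without any but library 2 labelled double-KO (adjusted p between 0.083 and 0.13), and *Phlda1* without the unnumbered library (1.45, adjusted p = 0.053) or library 2 (1.28, adjusted p = 0.068) labelled *Rasa1*-KO. *Dusp6* (-0.23, standard error 0.09, adjusted p = 0.061), *Spry4* (0.72, 0.33, adjusted p = 0.12), *Fosl1* (-0.90, 0.44, adjusted p = 0.15) and *Etv5* (-0.26, 0.14, adjusted p = 0.20) missed the threshold. Without both libraries that stood apart all 10 passed, 8 lower and 2 higher, as did 50.3% of all genes.

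Against *Nf2*-KO, 3 of the 10 genes were lower in labelled double-KO (15.3% of all genes) and 2 were higher (16.9%). *Etv4* had -0.60 (standard error 0.12, adjusted p = 0.002), *Dusp5* -0.43 (0.15, adjusted p = 0.044) and *Spry1* -0.38 (0.09, adjusted p = 0.0086). *Phlda1* had 1.64 (0.39, adjusted p = 0.0071) and *Spry4* 0.98 (0.33, adjusted p = 0.04). *Dusp4* overlapped between these groups, with 0.06 (0.12, adjusted p = 0.74), and *Dusp6*, *Spry2*, *Etv5* and *Fosl1* were lower in every labelled double-KO library without passing the test. In all 7 genes lay wholly below and 2 wholly above, where 28.9% and 27.8% of all genes did. *Dusp5* lost its call without any library of these groups but labelled double-KO 3 (adjusted p between 0.064 and 0.14; -0.26 without labelled double-KO 1), and *Spry4* without any but *Nf2*-KO 1 (adjusted p between 0.059 and 0.14), whereas *Etv4*, *Spry1* and *Phlda1* kept theirs in all 6 fits. Without both libraries that stood apart, more of the 10 genes passed against *Nf2*-KO, as did 50.6% of all genes. The 2 comparisons share the labelled double-KO libraries.

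**Figure D3:**
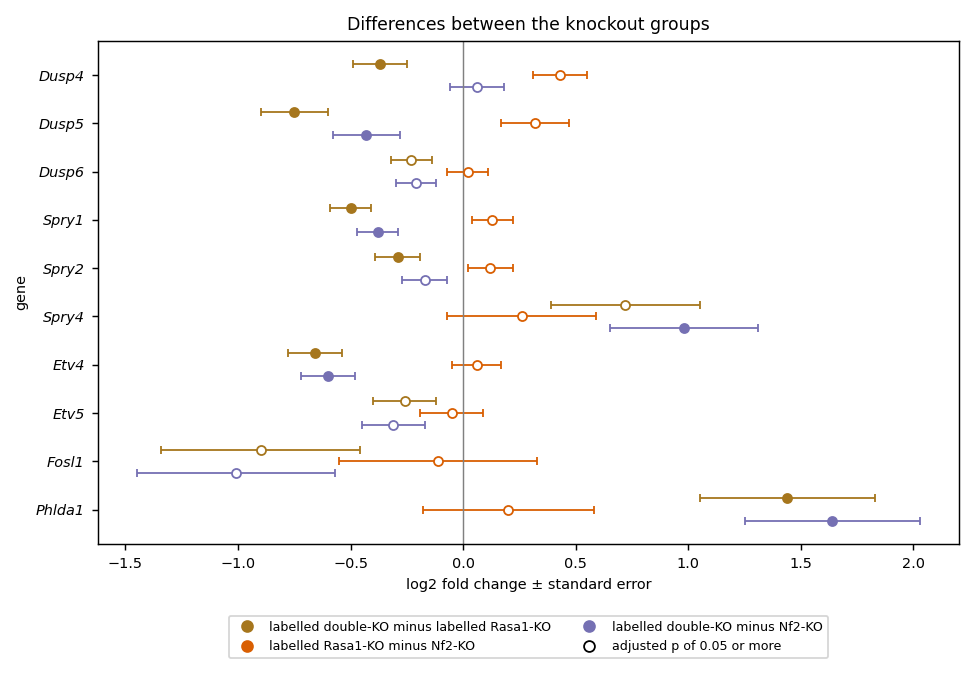
Log2 difference (x axis) between knockout groups for each gene (y axis), with its standard error from the edgeR fit and filled points for an adjusted p under 0.05. No point of labelled *Rasa1*-KO minus *Nf2*-KO is filled, while *Etv4*, *Spry1* and *Dusp5* lie below 0 and *Phlda1* above 0 in both comparisons of labelled double-KO.

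The departure from additivity asks whether the group labelled double-KO differs from control by the sum of the 2 single knockouts on the log2 scale. With groups as labelled, 2 of the 10 genes lay above the sum (27.4% of all genes) and 7 below it (24.9%). The values were 3.16 for *Phlda1* and 1.49 for *Spry4*, and between -3.17 for *Fosl1* and -0.76 for *Spry2* among the 7, and 3 genes (*Fosl1*, *Phlda1* and *Dusp5*) passed the calling rule of the study (25.2% of all genes). With the labels of the 2 groups exchanged, as the *Nf2* mRNA and the names of the tables have them, none lay above (2.69% of all genes) and 1 lay below (3.72%), and none passed the calling rule of the study (3.81%). It was *Dusp6*, with -0.52 (standard error 0.12, adjusted p = 0.026), where the sum of the single differences was larger than the difference of the group low in both *Rasa1* and *Nf2*. Leaving out any library of the knockout groups but labelled double-KO 1 ended this call, with adjusted p between 0.052 and 0.085. In the exchanged form the other values ran from -1.37 (standard error 0.63, adjusted p = 0.26) for *Fosl1* to 0.28 (0.54, adjusted p = 0.84) for *Phlda1*. Without both libraries that stood apart, more of the 10 genes departed in this form, as did 25.3% of all genes.

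The genes differed in how steady they were within a group. In control, the SD of log2 CPM (prior count of 2) was 1.22 for *Fosl1*, 0.96 for *Phlda1* and 0.81 for *Spry4*, and between 0.10 (*Dusp6*) and 0.25 (*Etv5*) for the other 7, where the median of all genes was 0.39. The immediate early genes *Egr1*, *Fos* and *Dusp1*, which growth factors induce within minutes, were low in the 2 libraries that stood apart, although not all early genes were. *Egr1* had 6.41 CPM in the unnumbered control library against 82.6 and 98.2 CPM in control libraries 1 and 2, and 9.43 CPM in library 1 labelled double-KO against 66.7 and 64.8 CPM in libraries 2 and 3. *Fos* had 79.2 CPM in the former against 227 and 199 CPM, and 70.0 CPM in the latter against 255 and 255 CPM. *Dusp1* had 9.24 CPM against 42.5 and 41.2 CPM, and 16.9 CPM against 41.8 and 39.4 CPM. *Ier3*, also an early gene, was instead the highest of its group in both, with 139.6 CPM against 97.3 and 73.1 CPM in control and 232 CPM against 192 and 171 CPM in labelled double-KO. *Hbegf* and *Junb* lay 0.16 and 0.10 above the group mean on the log2 scale in the unnumbered control library and 0.31 and 0.13 below it in library 1 labelled double-KO.

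In the unnumbered control library, *Fosl1* lay below the mean of its group by 1.41 on the log2 scale, *Phlda1* by 0.95 and *Spry4* by 0.92, while the other 7 genes lay within 0.26 of it. In library 1 labelled double-KO, *Fosl1* lay 0.63 and *Dusp5* 0.38 below, and *Phlda1* was at 0.01. *Dusp6*, *Spry1* and *Spry2* deviated by at most 0.17 in any of the 12 libraries, also where *Egr1* was low. The low *Egr1* libraries had the highest total counts of all 12, 95340850 and 96674463, and the part of depth or handling in their values was not tested.

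**Figure D4:**
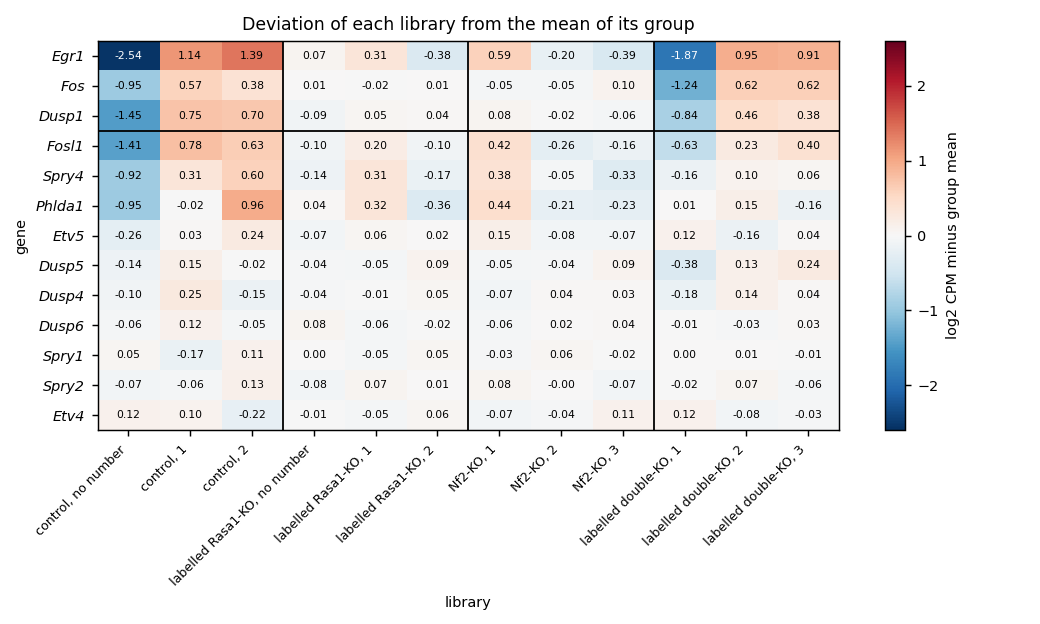
Log2 CPM minus the mean of the library's own group, for 3 immediate early genes (above the line) and the 10 genes in the 12 libraries; red is above and blue below the group mean. The unnumbered control library and labelled double-KO library 1 are lowest in *Egr1* (-2.54 and -1.87), and *Dusp6* stays within 0.12 of its group mean throughout.

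Levels were compared between genes by TPM, within a group. *Dusp6* ranked first in all 4 groups, with mean TPM of 63.0 (control), 75.9 (labelled *Rasa1*-KO), 91.1 (*Nf2*-KO) and 73.7 (labelled double-KO), and did not overlap with the next gene, *Dusp4*, in any group. *Dusp4* had 28.7, 37.6, 33.9 and 33.3 TPM. *Phlda1* came next in control with 26.9 TPM (8.53 to 51.1), where its libraries overlapped with those of *Dusp4* and *Spry1*, and also in labelled double-KO with 18.5 TPM. In labelled double-KO its libraries overlapped with those of *Dusp5* (17.5 TPM) and *Spry1* (15.8 TPM). In the *Nf2*-low groups *Phlda1* ranked 8 of 10, with 6.07 TPM in labelled *Rasa1*-KO and 6.43 TPM in *Nf2*-KO, and overlapped with *Fosl1* just above it (6.64 and 8.72 TPM). *Fosl1* was the lowest of the 10 genes in control at 2.27 TPM, close to *Spry4* at 2.37 TPM, with overlapping libraries. *Spry4* was the lowest in the other groups, with 1.10 TPM in labelled *Rasa1*-KO, 1.12 TPM in *Nf2*-KO and 2.05 TPM in labelled double-KO. *Etv5* had a mean of between 2.80 and 3.69 TPM and *Etv4* of between 8.11 and 13.2 TPM over the groups.

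For *Dusp6*, the genes of nearest pattern over the 12 libraries were *Ints12*, *Clpb* and *Eif5a* among 9534 genes with a mean of at least 10 CPM, with root mean square differences of centred log2 CPM of 0.092, 0.099 and 0.099. Of the other 9 genes the nearest was *Spry2* at 0.155, followed by *Dusp4* at 0.178 and *Etv4* at 0.195, and the farthest was *Phlda1* at 1.11. All of these values share the same libraries and normalization.

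Among further genes that are known to respond to ERK, most that passed also rose. Of 15 such genes, 8 rose and 1 fell in labelled *Rasa1*-KO, where 19.7% of all genes rose and 22.2% fell. In *Nf2*-KO 7 rose and 3 fell (20.6% and 22.2% of all genes), so that the share that fell was near that of all genes. In labelled double-KO 5 rose and none fell (4% and 2.46%). The medians of the 15 were 0.98, 0.74 and 0.23. *Areg*, which encodes the EGF receptor ligand amphiregulin, had 3.79 ± 0.455 CPM in control, 27.1 ± 1.05 CPM in labelled *Rasa1*-KO, 23.7 ± 2.01 CPM in *Nf2*-KO and 9.52 ± 2.05 CPM in labelled double-KO (SD, n = 3). *Areg* rose by 2.84 (standard error 0.17, adjusted p = 4.2e-07), 2.64 (0.17, adjusted p = 3.8e-07) and 1.33 (0.16, adjusted p = 0.00089). The receptor gene *Epha2* rose by 1.56, 1.46 and 0.95, and *Ccnd1*, the gene of cyclin D1, by 1.52, 1.16 and 0.52, and *Ier3* rose by 1.44, 1.27 and 0.94. *Lif*, a cytokine gene, fell by 0.72 and 0.62 in the *Nf2*-low groups, where *Epha4* (-0.59) and *Mcl1* (-0.32) also fell in *Nf2*-KO.

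The other MAP kinase phosphatases were split. Of 6 in the tables, 3 rose and 2 fell in labelled *Rasa1*-KO (19.7% and 22.2% of all genes). In *Nf2*-KO 3 rose and 1 fell (20.6% and 22.2%), and in labelled double-KO 1 rose (4%). *Dusp9* rose by 1.32 and 0.83 in the *Nf2*-low groups, *Dusp7* by 0.92 and 0.51 there and by 0.64 in labelled double-KO, and *Dusp10* by 0.81 and 0.56. *Dusp16*, whose product acts mainly on JNK and p38, fell by 1.28 and 1.43, and *Dusp8* fell by 0.70 in labelled *Rasa1*-KO. Of 6 other FOS and JUN genes, *Junb* rose by 0.93, 0.72 and 0.70 in labelled *Rasa1*-KO, *Nf2*-KO and labelled double-KO, *Jun* fell by 0.96 and 0.54 in the *Nf2*-low groups, and *Fosl2* rose by 0.47 in *Nf2*-KO. *Fosl1* was thus the member of the FOS and JUN family with the largest fold changes in both *Nf2*-low groups.

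Of the genes of the cascade itself, few were called in labelled *Rasa1*-KO (19.7% of all genes rose and 22.2% fell there) and about the share of all genes in *Nf2*-KO (20.6% and 22.2%). Of 18 genes from receptor adaptors to ERK, 2 rose and 2 fell in labelled *Rasa1*-KO, and 3 rose and 5 fell in *Nf2*-KO. In labelled double-KO 1 rose, where 4% of all genes rose and 2.46% fell. The medians of the 18 were -0.15, -0.27 and -0.02 in these groups. *Map2k1*, the gene of MEK1, rose in all 3, by 1.24, 1.29 and 0.64. The adaptor gene *Gab1* fell by 1.05 and 0.83 and the scaffold gene *Ksr1* by 0.47 and 0.52 in the *Nf2*-low groups. Of 12 genes for RAS GTPase-activating proteins and Spred proteins, which dampen RAS, 5 fell and none rose in labelled *Rasa1*-KO, 3 fell and 2 rose in *Nf2*-KO, and 2 fell in labelled double-KO, *Rasa1* itself among those that fell in both *Rasa1*-low groups. *Rasal1*, another RAS GTPase-activating protein gene, had 74.3 ± 6.25 CPM in control, 3.80 ± 0.510 CPM in labelled *Rasa1*-KO, 1.62 ± 0.139 CPM in *Nf2*-KO and 34.4 ± 11.1 CPM in labelled double-KO (SD, n = 3). *Rasal1* fell by 4.29 (standard error 0.22, adjusted p = 1.5e-07), 5.52 (0.24, adjusted p = 2.5e-08) and 1.11 (0.19, adjusted p = 0.0059) on the log2 scale.

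**Figure D5:**
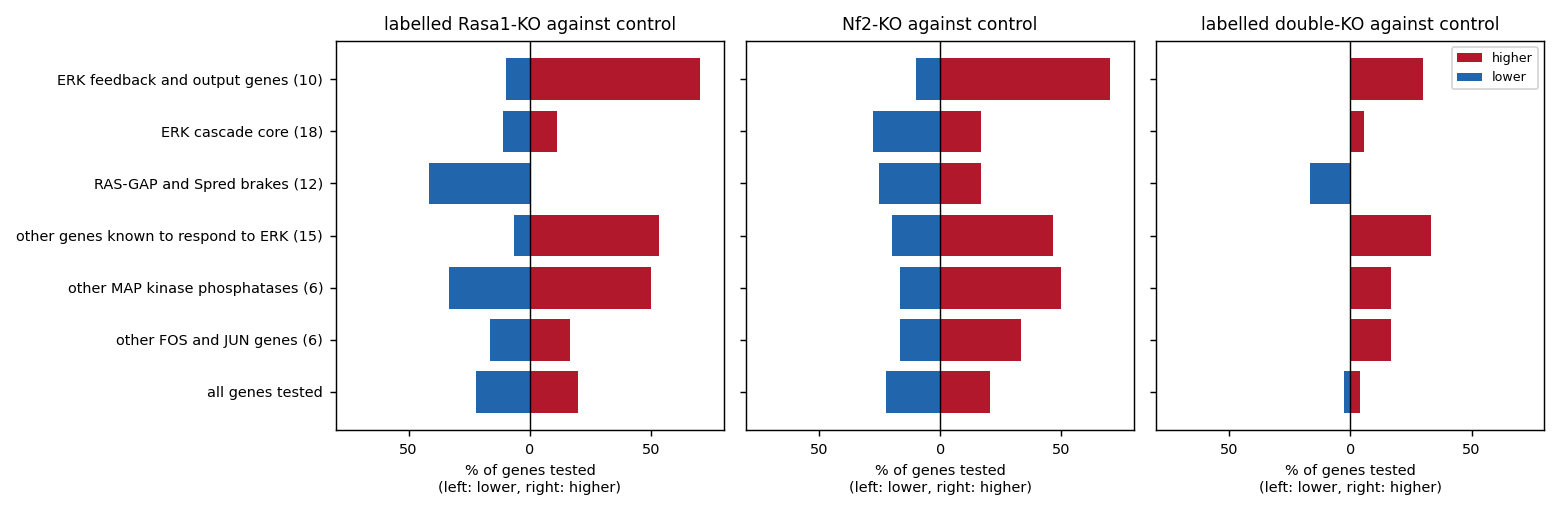
Share of genes tested (x axis, %) that were higher (right, red) or lower (left, blue) than control at an adjusted p under 0.05, for the 10 genes, 5 lists of related genes and all genes tested, in 3 panels by group, with the number of genes in brackets. The 10 genes and the other genes known to respond to ERK have 30% or more of their genes higher in each panel, where all genes have 19.7%, 20.6% and 4%.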

How the data were processed

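Total RNA of 12 libraries was sequenced after rRNA depletion with a stranded kit. Reads were trimmed by the authors (Trimmomatic 0.38), mapped to mm10 (HISAT2 2.1.0) and assigned to RefSeq genes (StringTie 2.1.3b). They deposited raw read counts per gene, FPKM and TPM, and a log2 column that was not used. Every gene of the tables had at least 1 read in each library.

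Counts were tested in R 4.3.3 with edgeR 4.0.16 (filterByExpr, TMM, quasi-likelihood test, 1 fit over 4 groups), with Benjamini-Hochberg adjustment over 18053 genes and a threshold of 0.05. A fold change compares group means of the fit. Alternatives were DESeq2 1.42.0, RLE size factors, other filters, only the groups compared, the calling rule of the study, replicate numbers as a block, libraries left out, and limma 3.58.1 on log2 FPKM with a pseudocount of 1 or 0.1. A test of log2(TPM + 1) was added after seeing the data. The code was tested on simulated data. Figures were drawn with matplotlib 3.10.9.

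The 10 genes and the related lists were chosen with earlier results of these data known. Of the lists, the up to 3 genes that passed with the largest change in each direction per comparison are named, except 1 that is not reported here. Promoter sequences are from RefSeq (GRCm38.p6), where 5 of the 10 genes were found and 6 windows searched. Libraries of a group differed beyond sampling noise in every pair (median chi-square over genes of 2.4 to 44.4, where sampling would give 0.455), so each counted as 1 sample. Numbers in the titles did not pair the libraries. By the names of the tables, the unnumbered libraries of control and labelled double-KO went together, with deviations from the group means correlated at 0.626. Numbers 1 and 2 did not set pairs of these groups apart. Same-numbered pairs had 0.313 and 0.444, and differently numbered pairs 0.258 and 0.399. The numbers did not pair the other groups either, so tests were run without a block.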

Additional observations from a re-analysis of the deposited data

Results flagged for a closer look

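The difference of the libraries labelled double-KO from control departed from the sum of the differences of labelled *Rasa1*-KO and *Nf2*-KO for 9 of the 10 genes. So did that of 52.4% of all genes, by a test of the departure itself (edgeR, adjusted over all genes). The departure was -3.17 for *Fosl1* (standard error 0.64, adjusted p = 0.0016), -1.87 for *Dusp5* (0.21, adjusted p = 2.1e-05), -1.43 for *Etv4* (0.16, adjusted p = 2.3e-05), -0.98 for *Dusp6* (0.12, adjusted p = 4.3e-05), -0.83 for *Spry1* (0.13, adjusted p = 0.00027), -0.82 for *Dusp4* (0.17, adjusted p = 0.002) and -0.76 for *Spry2* (0.14, adjusted p = 0.0008). It was 3.16 for *Phlda1* (0.55, adjusted p = 0.00054) and 1.49 for *Spry4* (0.46, adjusted p = 0.018). *Nf2* mRNA goes against the labels these values rest on. With the labels of the 2 groups exchanged and all libraries in the fit, *Dusp6* alone of the 10 genes departed, by -0.52 (0.12, adjusted p = 0.026). Of all genes, 6.41% departed in that form.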

How the results depend on the processing

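Over 10 genes, 8 comparisons and the alternatives run, 1287 values kept their direction and their side of the threshold, 81 lost their call and 43 gained a call. The alternatives with no filter and with only genes read in every library were the same fit, and its values are counted under both. Of called values 1 changed sign, *Spry1* in labelled *Rasa1*-KO against control, with -0.00 on log2(TPM + 1). A further 48 values changed sign without passing in either fit, 11 of them on log2(TPM + 1), and none was over 0.28 in size without the change of setting. Numbers of genes called against control were 8, 8 and 3 in labelled *Rasa1*-KO, *Nf2*-KO and labelled double-KO (41.9%, 42.8% and 6.46% of all genes). They were 6 in labelled double-KO against labelled *Rasa1*-KO (30.3%), 0 in labelled *Rasa1*-KO against *Nf2*-KO (3.66%) and 5 in labelled double-KO against *Nf2*-KO (32.2%). For the departures as labelled and exchanged they were 9 (52.4%) and 1 (6.41%). These numbers moved over 1.5 times as follows. DESeq2 called 5 in labelled double-KO against control (12% of all genes) and 1 in labelled *Rasa1*-KO against *Nf2*-KO (8.11%). With only the groups compared these were 0 (0.102% of all genes) and 2 (25.8%). The calling rule of the study called 1, 2, 0, 0 and 1 in the comparisons other than labelled *Rasa1*-KO against *Nf2*-KO (9.27%, 11.4%, 2.03%, 5.66% and 7.69% of all genes). It called 3 and 0 for the departures (25.2% and 3.81%). In labelled double-KO against control, log2 FPKM called 1 with either pseudocount (7.89% and 7.06% of all genes). Log2(TPM + 1) called 4, 5, 0, 2 and 2 (44.8%, 37.0%, 10.2%, 21.5% and 29.0% of all genes). It called 0 for the exchanged departure (4.45%), and the median of all genes was shifted on this scale by up to 0.25. Without both libraries that stood apart, 10, 2 and 8 were called between the knockout groups (50.3%, 19.2% and 50.6% of all genes). For the exchanged departure 3 were called (25.3%).

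Leaving out 1 library gave 8 to 9, 7 to 9, 1 to 3, 3 to 5, 0 to 0 and 3 to 4 genes called, and 9 to 10 and 0 to 1 for the departures. The shares of all genes were 30.7% to 60.5%, 32.1% to 61.6% and 2.68% to 30.1% against control. Between the knockout groups they were 19.6% to 25.4%, 1.15% to 1.49% and 22.6% to 27.0%. For the departures they were 45.3% to 65.4% and 3.45% to 20.7%. The count in labelled double-KO against control fell to 1 without labelled double-KO library 2 or 3 (2.68% and 2.73% of all genes). Against labelled *Rasa1*-KO it fell to 3 without the unnumbered or library 2 of that group (19.6% and 19.8%). Against *Nf2*-KO it fell to 3 without *Nf2*-KO library 2 or 3 or labelled double-KO library 1 or 2 (between 22.6% and 27.0%). The exchanged departure fell to 0 without any labelled *Rasa1*-KO or *Nf2*-KO library or labelled double-KO library 2 or 3. By the titles, the replicate numbers do not pair the libraries (correlations of -0.379 and 0.399 between same-numbered control and labelled double-KO libraries). By the names of the tables, these were 0.626 for the unnumbered pair, and 0.313 and 0.444 for numbers 1 and 2. Differently numbered pairs of 1 and 2 had 0.258 and 0.399, so these numbers did not set pairs apart. Same-numbered pairs of the other group combinations had between -0.0552 and 0.174. With a block by the titles, 1 gene was called in labelled double-KO against control (2.78% of all genes), 3 against labelled *Rasa1*-KO (20.7%) and 0 for the exchanged departure (1.69%). With a block by the names of the tables, 1 was called in labelled *Rasa1*-KO against *Nf2*-KO (8.66%) and 2 for the exchanged departure (13.2%).

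*Fosl1* and *Spry4*, with under 15 CPM in all libraries and a wide spread in control, had standard errors of 0.32 to 0.64 on the log2 scale, the widest beside those of *Phlda1*.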
